A study of Mus musculus with 22 samples.

Results

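The 9 genes described here answer to bone morphogenetic protein (BMP) signalling, or carry or restrain it, and were followed through the developing mouse trachea: the homeobox genes Msx1 and Msx2, the Id genes Id1, Id2, Id3 and Id4, and the Smad genes Smad6, Smad7 and Smad9. All 9 were found by symbol among the 26202 gene symbols of the count table, and all 9 passed the filter on low counts (1 CPM, a read count scaled to a common library total, in over 50% of any group's libraries). They were chosen by name with earlier results of these libraries in view, above all the levels in Notum mutant and control chondroblasts. The values of that contrast are therefore given as a description with no test.

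The study asked how Wnt5a, a Wnt ligand of the ventral tracheal mesenchyme, and Notum, an enzyme that inactivates Wnt ligands, shape the cell condensations that become cartilage rings. Whole tracheas at stage E11.5 (embryonic days after mating) came from Wnt5a f/f controls (5 libraries) and from Dermo1Cre; Wnt5a f/f mutants (4 libraries), in which Cre recombinase acts in the mesenchyme and the epithelium keeps its Wnt5a. Cells sorted at E13.5 were control epithelium (EpCAM-positive, 2 libraries), control muscle (positive for the gamma SMA eGFP reporter, 2 libraries), control chondroblasts (negative for both, 2 libraries) and Notum 150/150 chondroblasts (3 libraries). All E13.5 embryos carried gamma SMA eGFP. The labels give the E13.5 controls as Bmp4 f/f in some samples, with no Cre named, and as Notum 300/300 in others, and the columns of the table do not say which is which. The chondroblast gate is negative selection, so any cell without EpCAM and eGFP can fall in it. Each sample pooled 5 tracheas. The labels list 3 samples of each sorted control population and 4 of the Notum mutants, so 1 labelled sample of each of these groups was not analysed here. For the sorted controls, 1 library of each population carries an earlier date and 1 a later date in its column name. All 3 Notum mutant libraries carry the later date, and 2 of them share the number 98.

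BMP ligands bind pairs of type I and type II serine/threonine kinase receptors, which phosphorylate the receptor Smads Smad1, Smad5 and Smad9. These join Smad4 and bind DNA, and the Id and Msx genes are among their classic targets. Smad6 and Smad7 are inhibitory Smads, induced by the pathway and acting back on its receptors. Id proteins bind basic helix-loop-helix (bHLH) factors and keep them off DNA. In cartilage, BMP signalling promotes condensation and chondrocyte differentiation, and Bmp4 in the ventral foregut mesenchyme is needed for the trachea to form.

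Levels are expected counts summed per symbol, in CPM after TMM scaling over the 18 libraries, whose total counts ran from 6880660 to 21678177. A floor of 3 counts is 0.138 CPM in the deepest library and 0.436 CPM in the shallowest, for counting error only, since the kit adds no molecular identifiers. Sort markers followed the labels, Sox9 only in part. The epithelial marker Epcam was at 522 and 895 CPM in epithelium and at most 4.48 CPM in the other sorted libraries. The smooth muscle actin Actg2 was at 2154 and 1817 CPM in muscle and at most 12.1 CPM elsewhere at E13.5, and the cartilage collagen Col2a1 was at 1213 and 912 CPM in control chondroblasts and 1271 to 1780 CPM in Notum mutants. Col2a1 and Sox9 were also present in muscle, at 277 and 697 CPM and at 206 and 457 CPM. Epithelium held Col2a1 at 189 and 301 CPM and Sox9 at 52.3 and 39.6 CPM. Sox9 was at 220 CPM in the earlier and 690 CPM in the later control chondroblast library, and 526.5 to 693.6 CPM in the mutants. The later muscle library thus held more Sox9 than the earlier control chondroblasts. The targeted genes did not separate the genotypes. Wnt5a ran from 57.7 to 162 CPM in E11.5 controls and from 46.5 to 127 CPM in the libraries labelled as its mutants. Notum was at 13.8 CPM in the earlier and 86.1 CPM in the later control chondroblast library. The libraries labelled Notum mutant, all of the later date, held 13.9 to 35.6 CPM. Each was thus below the later control and none below the earlier. The part of each gene that is lost is not stated in the sources used here, and reads outside it would still be counted, so these levels check no label.

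RefSeq promoter windows (250 bases before to 50 after the start, build GRCm38.p6) were examined for 7 of the 9 genes. None was examined for Id1, or for Smad7, which was also higher in every Notum mutant library than in either control. The 4 shown are those of Msx1, Msx2 and Smad9, whose levels were higher in every Notum mutant library than in either control, and that of Id3, whose levels were not. The windows are chr5:37824536-37824835 on the minus strand for Msx1, chr13:53472731-53473030 on the minus strand for Msx2, chr3:54755332-54755631 on the plus strand for Smad9 and chr4:136143572-136143871 on the plus strand for Id3. Each is written 5′ to 3′ along the gene, and capitals mark GGCGCC, a GC-rich element bound by Smad1 and Smad5, and CAGAC or its reverse complement, an element bound by Smad4.
Msx1: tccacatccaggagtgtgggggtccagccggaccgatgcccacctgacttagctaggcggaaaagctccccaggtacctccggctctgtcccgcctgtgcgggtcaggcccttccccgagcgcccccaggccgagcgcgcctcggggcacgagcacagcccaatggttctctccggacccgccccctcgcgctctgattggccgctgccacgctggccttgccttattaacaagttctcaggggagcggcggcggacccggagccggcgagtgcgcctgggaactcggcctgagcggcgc
Msx2: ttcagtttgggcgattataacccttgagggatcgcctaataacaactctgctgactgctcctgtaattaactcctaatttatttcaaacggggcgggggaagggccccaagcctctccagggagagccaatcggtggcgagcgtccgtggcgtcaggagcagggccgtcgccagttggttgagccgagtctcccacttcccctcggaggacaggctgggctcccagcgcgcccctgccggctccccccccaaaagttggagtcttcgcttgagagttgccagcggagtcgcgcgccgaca
Smad9: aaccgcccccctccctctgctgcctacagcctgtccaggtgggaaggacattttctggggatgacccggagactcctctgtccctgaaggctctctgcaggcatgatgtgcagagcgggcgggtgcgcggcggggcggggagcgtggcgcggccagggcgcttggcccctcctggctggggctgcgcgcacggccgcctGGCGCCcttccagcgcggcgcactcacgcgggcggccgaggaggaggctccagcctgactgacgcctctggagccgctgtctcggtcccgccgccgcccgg
Id3: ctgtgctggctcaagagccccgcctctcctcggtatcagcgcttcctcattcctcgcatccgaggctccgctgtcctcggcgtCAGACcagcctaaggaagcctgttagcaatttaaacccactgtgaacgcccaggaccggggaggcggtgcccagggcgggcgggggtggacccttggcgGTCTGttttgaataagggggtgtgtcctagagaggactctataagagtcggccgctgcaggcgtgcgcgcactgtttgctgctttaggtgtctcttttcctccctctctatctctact
The windows of Msx1 and Msx2 held neither GGCGCC nor CAGAC. Smad9 held 1 GGCGCC, as did Id2 and Id4, and Id3 held CAGAC at 2 places, 1 on each strand. Of all 32851 promoter windows of this length, 11.9% held GGCGCC and 49.6% held CAGAC on either strand. The E-box CANNTG, the site of bHLH factors and not marked here, was found once each in Msx1, Msx2, Smad9, Smad6 and Id2 and in 72.3% of all windows. Letters in a short window are a description only, and distal elements were not examined.

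Msx1 and Msx2 encode homeobox transcription factors of mesenchyme that is patterned by BMP, in limb buds, teeth and the skull. Msx2 (chr13:53466884-53473074, minus strand) was the member with the clearest step between groups. It was at 25.7 CPM in the earlier and 21.8 CPM in the later control chondroblast library, and at 102, 90.8 and 100 CPM in Notum mutants 97, 98 and 98-2. Every mutant library lay above every other library of the series, and the mutant mean of 97.5 ± 5.9 CPM (SD, n = 3) was 4.13-fold the control mean in the fit. Against each control library alone the mutant mean was 3.79-fold and 4.47-fold higher. The range among mutants, 90.8 to 102 CPM, was narrow beside that gap.

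Msx1 (chr5:37820485-37824583, minus strand) showed a similar step at a lower level. It was at 3.83 and 4.41 CPM in control chondroblasts and at 19.4, 18.7 and 16.5 CPM in the mutants, with no overlap, and the fitted difference was 4.44-fold. Against the earlier and the later control alone it was 4.75-fold and 4.13-fold. Unlike Msx2, Msx1 reached a like level in 1 library outside the mutants, the E11.5 control 7, at 17.5 CPM. Expressed per kilobase of exonic sequence (3.1 kb for Msx1, 3.28 kb for Msx2), the mutant chondroblasts held 5.87 ± 0.49 CPM of Msx1 and 29.7 ± 1.8 CPM of Msx2 (SD, n = 3). The ratio of Msx2 to Msx1 CPM, not corrected for length, was 6.72 and 4.95 in control chondroblasts and 5.25, 4.85 and 6.07 in the mutants, so the ranges overlapped.

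**Figure D1:**
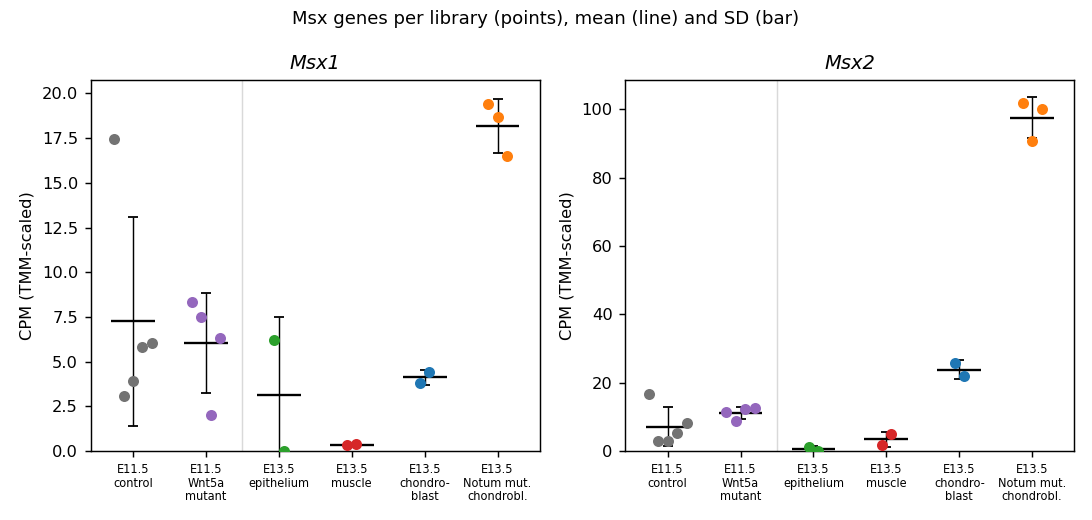
Msx1 (left) and Msx2 (right) in TMM-scaled CPM by group, with 1 point per library, the group mean as a line and the SD as a bar. The 3 Notum mutant chondroblast libraries sit at 16.5 to 19.4 CPM for Msx1 and 90.8 to 102 CPM for Msx2, above both control chondroblast libraries for each gene.

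In the other sorted populations both Msx genes were low. Muscle held Msx1 at 0.356 and 0.379 CPM, which is 6 counts in each library, and Msx2 at 1.90 and 5.05 CPM. Epithelium held Msx1 at 6.23 CPM in the earlier library and 0 in the later, and Msx2 at 1.25 CPM and 0. A count of 0 in the later epithelium library allows up to 0.192 CPM. Msx1 thus differed more between the epithelium libraries than between epithelium and chondroblasts. Control chondroblasts were above muscle in both libraries for each gene, with a fitted log2 difference of 3.44 ± 2.33 (SE) for Msx1 and 2.76 ± 1.69 for Msx2, and neither passed (adjusted p = 1 in edgeR's quasi-likelihood test for each). Against epithelium, Msx2 was higher in chondroblasts by 5.19 ± 1.89 on the log2 scale, with adjusted p = 0.245. That value passed in DESeq2 (adjusted p = 0.00981), without the filter (0.0234) and without the earlier epithelium library (0.0328), where the remaining library is at 0.

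The Id genes encode dominant-negative helix-loop-helix proteins, which carry no DNA-binding region. Id1 (chr2:152736251-152737410, plus strand) went the other way from Msx1 and Msx2 in the Notum mutants. It was at 110 and 86.8 CPM in control chondroblasts and at 47.6, 27.2 and 36.1 CPM in the mutants, without overlap, a fitted fold of 0.379. Against the earlier control the control level was 2.97-fold that of the mutants, and against the later 2.35-fold. The mutants were also below muscle, which held 52.0 and 58.0 CPM, and Id1 was lower in them than in all 15 other libraries. The ratio of Msx2 to Id1 CPM was 0.234 and 0.252 in control chondroblasts and 2.14, 3.33 and 2.77 in the mutants. That gap follows from the opposite differences of these selected genes and adds no weight to them.

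The 3 remaining Id genes showed no such step. Id2 was at 430 and 456 CPM in control chondroblasts and 372, 361 and 456 CPM in the mutants. Id3 was at 1043 and 1114 CPM against 1135, 1019 and 1047 CPM. Id4 was at 9.76 and 16.2 CPM against 12.3, 13.7 and 14.1 CPM. In each of these the ranges overlapped, with fitted folds of 0.90, 0.996 and 1.03. For Id4 both the highest and the lowest value of the contrast came from the control libraries, and the mutants lay above the earlier and below the later control.

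**Figure D2:**
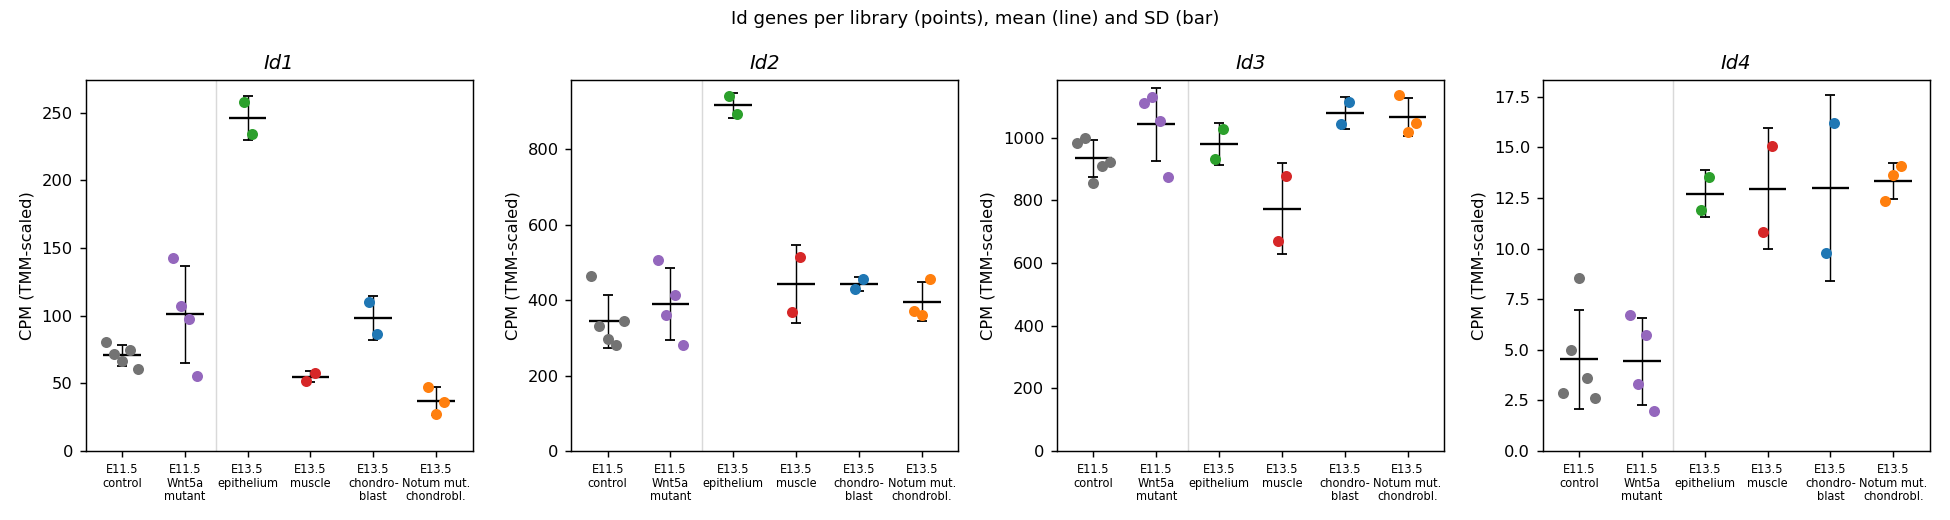
Id1 to Id4 in TMM-scaled CPM by group, with 1 point per library, the group mean as a line and the SD as a bar. Id1 and Id2 are highest in epithelium (258 and 235 CPM, 941 and 894 CPM), Id1 is lowest in the Notum mutants (27.2 to 47.6 CPM), and Id3 stays between 671 and 1135 CPM in every library.

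The Id genes differed between the sorted control populations. Id1 was highest in epithelium, at 258 and 235 CPM, intermediate in chondroblasts and lowest among controls in muscle. Epithelium exceeded muscle by 2.17 ± 0.23 (SE) on the log2 scale (4.50-fold, adjusted p = 0.00778, edgeR) and chondroblasts by 1.35 ± 0.22, printed as chondroblasts minus epithelium at -1.35 (adjusted p = 0.0351). Id2 was at 941 and 894 CPM in epithelium against 370 and 516 CPM in muscle, a log2 difference of 1.06 ± 0.20 (adjusted p = 0.0427), and chondroblasts minus epithelium was -1.07 ± 0.20 (adjusted p = 0.0483). Chondroblasts and muscle held Id2 at nearly equal means, 443 ± 18 and 443 ± 103 CPM (SD, n = 2 each). Id1 was higher in chondroblasts than in muscle by 0.82 ± 0.22 and Id3 by 0.46 ± 0.17 on the log2 scale, with adjusted p of 0.572 and 0.839. Id4 did not separate any pair of populations, lying between 9.76 and 16.2 CPM in all 6 control libraries.

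These calls rest on 2 libraries a population, which also differed in content. Skeletal muscle genes (6) summed to 2481 CPM in the earlier and 656 CPM in the later muscle library. Macrophage genes (5) summed to 149 CPM in the earlier and 0.26 CPM in the later epithelium library. The part of these in the calls was not tested. With the date as a replicate block, Id1 and Id2 between chondroblasts and epithelium reached adjusted p of 0.0529 and 0.0607, and Id2 between epithelium and muscle 0.0544, so that 0 and 1 members passed in place of 2 and 2. Leaving out any single sorted control library left 0 or 1 member past the threshold in each of these comparisons. Between chondroblasts and epithelium that member was Msx2, and between epithelium and muscle it was Id1, which was lost without the earlier muscle library (adjusted p = 0.0594). The fold changes themselves moved little, from -1.53 to -1.21 for Id1 between chondroblasts and epithelium and from 0.85 to 1.32 for Id2 between epithelium and muscle. Genes known as induced by dissociation (9, Fos, Jun and heat shock genes among them) summed to 10440 and 14230 CPM in epithelium, 5406 and 8009 CPM in muscle and 3414 and 4606 CPM in control chondroblasts. They were thus highest in epithelium, as were Id1 and Id2, and their part in the result was not tested. In such pooled material fewer cells with a transcript and less of it per cell cannot be told apart.

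Id3 was the most abundant member per length in every group, at 602 ± 28 CPM per kilobase in control chondroblasts, followed there by Id2 at 182 ± 8 and Id1 at 84.7 ± 14 (SD, n = 2). The remaining 6 members were between 0.963 and 7.25 CPM per kilobase in those cells. Id3 kept the narrowest relative range, from 671 CPM in the earlier muscle library to 1135 CPM in Notum mutant 97. The table holds 3 entries under the symbol Id1, of which the largest carried 91.2% of the counts, and 1 entry for each other member. Id4 overlaps 2 annotated genes on the opposite strand, A330033J07Rik and Gm49291, and whether counting used strand is not given in the sources used here.

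Among the Smad genes, Smad9 (chr3:54755582-54801257, plus strand) encodes a receptor Smad that itself responds to BMP, and it was higher in the mutants. It was at 16.5 and 12.7 CPM in control chondroblasts and at 27.6, 32.4 and 26.7 CPM in the mutants, with no overlap and a fitted fold of 2.00. The difference was 1.75-fold against the earlier and 2.28-fold against the later control. Epithelium held 30.7 and 46.4 CPM, and muscle 12.2 and 11.2 CPM. The mutants thus lay above control chondroblasts and muscle, and mutant 98 overlapped epithelium. Epithelium exceeded muscle by 1.72 ± 0.57 and chondroblasts were below epithelium by -1.42 ± 0.56 on the log2 scale, with adjusted p of 0.181 and 0.279 in edgeR and of 0.02 for the first in DESeq2.

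The inhibitory Smads gave a mixed picture in which 1 control library decided the value. Smad7 was at 1.69 CPM in the earlier and 7.03 CPM in the later control chondroblast library, against 10.4, 10.6 and 8.04 CPM in the mutants. The groups did not overlap, but the mutant mean was 5.72-fold the earlier control and 1.37-fold the later. Smad6 was at 1.79 and 5.38 CPM against 5.34, 5.60 and 3.70 CPM, so it overlapped, and the direction turned with the control: 2.73-fold higher than the earlier and 0.907-fold the later. In epithelium too the libraries stood apart, Smad7 at 6.90 and 31.7 CPM and Smad6 at 3.93 and 17.7 CPM, the later library being the higher for both genes. Muscle held 3.67 and 3.85 CPM of Smad7 and 3.79 and 3.98 CPM of Smad6. No difference of Smad6 or Smad7 between control populations passed (adjusted p from 0.37 to 1, edgeR).

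**Figure D3:**
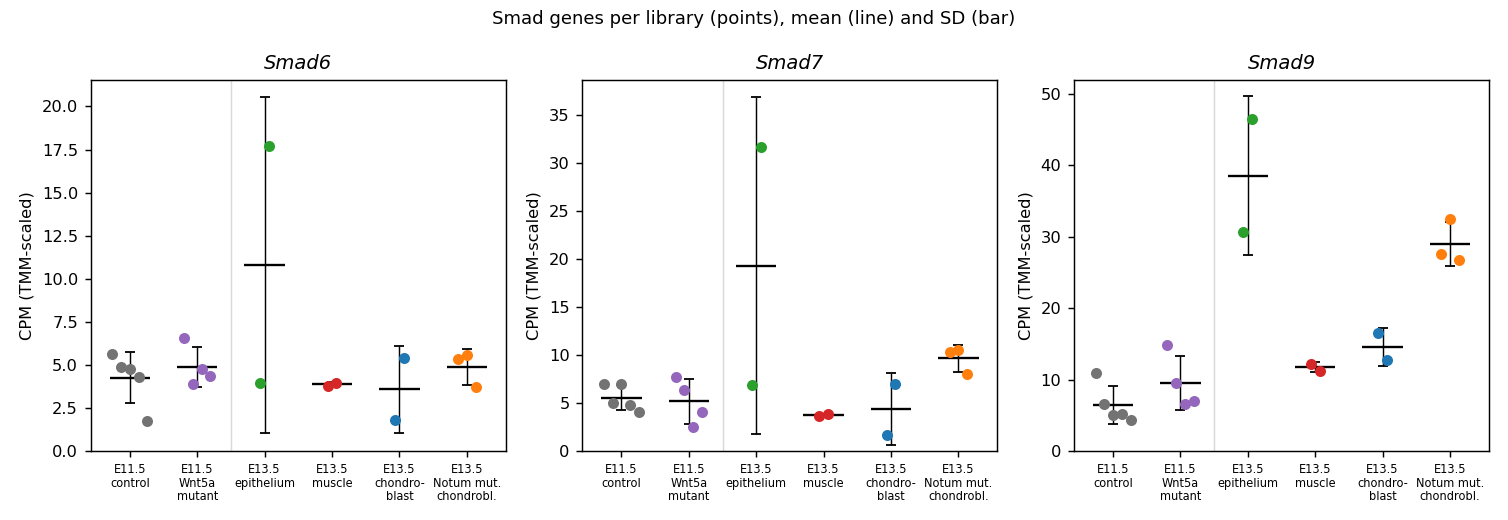
Smad6, Smad7 and Smad9 in TMM-scaled CPM by group, with 1 point per library, the group mean as a line and the SD as a bar. Smad9 is at 26.7 to 32.4 CPM in Notum mutants against 12.7 and 16.5 CPM in control chondroblasts, while Smad6 and Smad7 spread widely between the libraries of control chondroblasts and of epithelium.

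Over all 9 members, 6 were higher and 3 lower in the Notum mutants by fitted fold. The groups did not overlap for 4 members that were higher (Msx1, Msx2, Smad7 and Smad9) and for 1 that was lower (Id1). Of the 14120 genes in this fit, 17.1% were higher without overlap and 16.5% lower without overlap. The members' median log2 difference was 0.45, against 0.02 for all genes. The members were selected on this contrast, so neither their counts nor this median carries further weight. Msx1, Msx2, Id1, Smad7 and Smad9 kept their direction without the earlier control library and without the later. They also kept it without mutant 98-2, the library that shares its number with another.

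**Figure D4:**
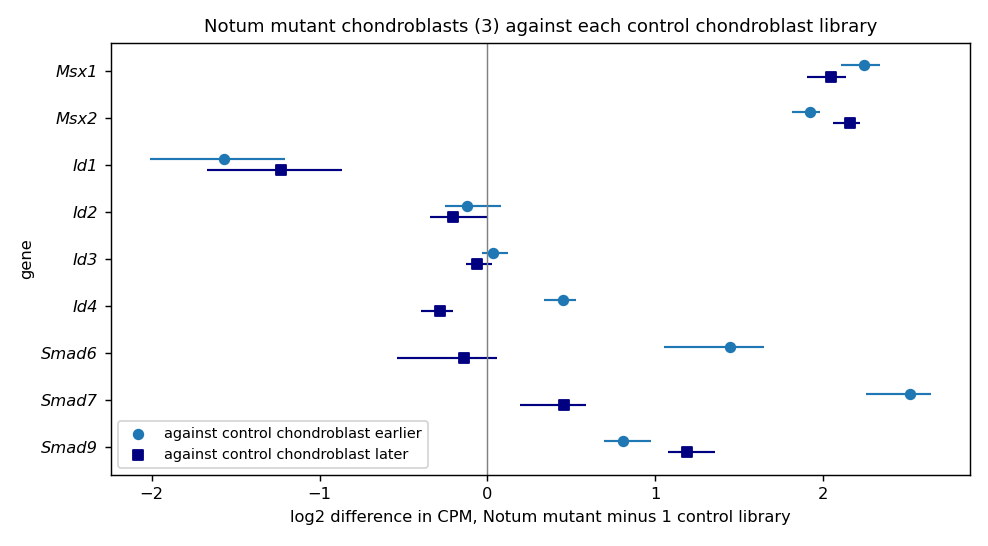
Difference between Notum mutant chondroblasts and each control chondroblast library on the log2 CPM scale, with the marker at the mean of 3 mutants and the line spanning the lowest to the highest mutant. Msx1, Msx2, Id1, Smad7 and Smad9 lie on 1 side of 0 against both controls. The markers of Id3 (0.033 and -0.062, both near 0), Id4 and Smad6 change side with the control.

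The control chondroblast libraries differed from each other in what else they held. Erythroid genes (5 globin and red cell genes) summed to 65640 CPM in the earlier library, to 5349 CPM in the later one and to 6160 to 8321 CPM in the mutants. Endothelial genes (7) summed to 135 and 69.7 CPM in the controls and 69.4 to 99.3 CPM in the mutants. Of these, 6 reached 1 CPM in both controls. Pecam1 differed most between the controls, at 22.8 and 0.0747 CPM, against 4.91 to 10.7 CPM in mutants. Kdr was at 23.25 and 17.49 CPM in the controls. Emcn was at 7.15 and 7.40 CPM there, above the mutants at 0.884 to 3.02 CPM. Macrophage genes (5) summed to 136 and 103 CPM in controls and to 182, 216 and 290 CPM in mutants, and chondroblast genes (7) to 2298 and 2159 CPM and to 2772, 3200 and 3558 CPM, so both lists were higher in every mutant. Smooth muscle genes (7) were at 73.2 CPM in each control and 81.2 to 116 CPM in mutants, while neural genes (206 and 321 against 278 to 359 CPM), skeletal muscle genes (43.5 and 35.0 against 42.2 to 75.3 CPM) and dissociation-induced genes (4606 and 3414 against 1999 to 3861 CPM) overlapped. The part of all these lists in the members' differences was not tested. Epithelial genes (6) were at 31.9 and 32.7 CPM in the controls and 16.8 to 25.6 CPM in the mutants, against 3265 and 3884 CPM in epithelium.

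Other genes of the pathway were examined through lists of receptors, ligands, antagonists, feedback regulators and further BMP-responsive genes. No gene of any list, and 0 (0%) of the 14120 tested, passed an adjusted p of 0.05 between Notum mutant and control chondroblasts in edgeR, with 1763 genes under an unadjusted p of 0.05 and 525 genes past the adjustment in DESeq2. At the p and fold thresholds of the study (unadjusted p under 0.05 and a fold over 1.5), applied here to edgeR p-values and with the CPM filter in place of the study's FPKM filter, 8.43% of all genes were called. Of the 12 other BMP-responsive genes tested, 5 were higher and 1 lower at those thresholds, and their median log2 difference was 0.95 against 0.02 for all genes. Of the 10 ligands, 3 were higher and 2 lower. These lists were chosen with earlier results of these data known, so neither their counts nor the median carries independent weight.

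Bmp4, the ligand of the ventral mesenchyme, had the smallest p among ligands. It was at 56.9 and 40.7 CPM in controls and at 90.1, 100 and 95.2 CPM in mutants, without overlap, a log2 difference of 0.98 ± 0.18 (SE; unadjusted p = 0.0012, adjusted p = 0.205, edgeR). Some controls carried floxed Bmp4 by their labels, and which libraries these were is not known. The T-box gene Tbx3 led the BMP-responsive genes, at 137 and 198 CPM against 356, 325 and 274 CPM (log2 difference 0.93 ± 0.20, adjusted p = 0.251). The type II receptor Acvr2b was at 9.81 and 8.22 CPM against 19.1, 24.2 and 19.1 CPM (1.22 ± 0.27, adjusted p = 0.255). The pseudoreceptor Bambi (0.77 ± 0.20) and the antagonist Chrdl1 (0.72 ± 0.19) had adjusted p of 0.27 each. Receptors and signal transducers gave 1 higher and 0 lower at the study's thresholds, antagonists 1 and 0, feedback regulators 2 and 0, and the TGF-beta branch and the bHLH partners 0 and 0.

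At E11.5, before condensation, the comparison asked whether loss of Wnt5a from the mesenchyme changed these genes. None of the 9 members passed (adjusted p = 1 for each in edgeR, 0 at an unadjusted p under 0.05 and 0 in DESeq2), and 0 reached the study's thresholds, against 0.0136% of 14699 genes called by adjusted p and 3.8% at the study's thresholds. None of them separated the groups, and 6 were higher and 3 lower by fitted fold. Msx2 was at 16.6, 2.85, 2.89, 5.29 and 8.24 CPM in controls 7, 13, 16, 17 and 18, and at 11.4, 8.70, 12.3 and 12.5 CPM in mutants 7, 13, 17 and 18 (log2 difference 0.63 ± 0.45). Control 7 alone lay above all mutants, and the 4 other controls lay below them. Msx1 was at 17.5, 3.08, 3.91, 5.82 and 6.04 CPM in those controls and 8.35, 7.49, 2.02 and 6.32 CPM in the mutants, with a log2 difference of -0.29 ± 0.52 that turned to 0.30 without control 7. Libraries 7 of both genotypes stood apart in dissociation-induced genes, at 3104 CPM in control 7 and 3928 CPM in mutant 7 against 201 to 500 CPM in the 7 others, and in neural genes, at 63.0 and 57.5 CPM against 148 to 501 CPM. The part of this in the members' levels was not tested.

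Id1 came nearest to a difference. It was at 80.9, 71.4, 66.5, 74.9 and 60.4 CPM in controls and at 143, 107, 97.9 and 55.4 CPM in mutants, so 3 mutants lay above all controls and mutant 18 below them. The log2 difference was 0.48 ± 0.22 with an unadjusted p of 0.0501 and 0.42 with the number in the column names as a block (adjusted p = 0.969). Within pairs of the same number, the mutant was higher for Id1 in pairs 7, 13 and 17 and lower in pair 18. Smad9 was higher in the mutant in all 4 pairs, by 0.35 to 0.71 on the log2 scale. Its fitted difference was 0.54 ± 0.32 (unadjusted p = 0.125, edgeR). The share of all genes with a single direction in these pairs was not counted, and whether the numbers pair the samples is not settled. Id2, Id3 and Smad6 differed by 0.16 ± 0.19, 0.13 ± 0.12 and 0.17 ± 0.35, and Smad7 and Id4 by -0.14 ± 0.34 and -0.05 ± 0.46.

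Of the pathway lists, only the bHLH factors and E proteins that Id proteins bind or oppose held called genes in the Wnt5a comparison, and these were the only 2 genes called in the whole fit. They were the myogenic factors Myod1 and Myog. Myod1 was at 2.89 to 5.41 CPM in controls and 13.2 to 18.2 CPM in mutants (log2 difference 1.92 ± 0.22, adjusted p = 0.0167), and Myog at 6.65 to 20.2 and 60.8 to 85.3 CPM (2.43 ± 0.25, adjusted p = 0.0116). Both define skeletal muscle, whose 6 marker genes, these 2 included, summed to 78.7 to 324 CPM in controls and 225 to 365 CPM in mutants. The part of that tissue in the difference was not tested. Leaving out single libraries gave 0 to 3 called genes in this comparison, with 0 left without control 7, 17 or 18 or without mutant 7 or 17.

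Between stages, control chondroblasts at E13.5 were set against control tracheas at E11.5. Stage, sorting and tissue composition cannot be told apart in this comparison, and it shares the control chondroblasts with those above. No member passed in edgeR, with 12.3% of 14732 genes called, while 4 were under an unadjusted p of 0.05 and 2 passed in DESeq2 (Msx2 and Smad9). At the study's thresholds 3 members were higher and 0 lower, against 26.1% of all genes. These were Msx2 (log2 difference 1.71 ± 0.59, adjusted p = 0.0915), Id4 (1.49 ± 0.52, 0.0932) and Smad9 (1.17 ± 0.38, 0.078). Id4 was at 2.62 to 8.53 CPM in the 5 E11.5 controls and Smad9 at 4.28 to 10.9 CPM, both below each chondroblast library. Without E11.5 control 7, Msx2 and Smad9 passed in edgeR (adjusted p of 0.0213 and 0.0356), and without control 16 Id4 did (0.0267). Id1 and Id3 were also higher in each chondroblast library than in each E11.5 control, by 0.45 ± 0.17 and 0.18 ± 0.13, and Msx1, at -0.83 ± 0.67, was not.

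Other genes of the pathway were called between E13.5 chondroblasts and E11.5 tracheas, with 12.3% of all genes called. Here too stage cannot be told apart from sorting and tissue composition. Of 10 ligands, 5 were higher and 0 lower in the chondroblasts, led by Gdf10 (6.39 ± 0.59), Bmp1 (1.46 ± 0.20) and Gdf5 (4.40 ± 0.74), a ligand of joint and cartilage precursors. Of 8 antagonists tested 4 were higher and 0 lower, with Bmper (2.36 ± 0.22), Fstl1 (1.51 ± 0.18) and Chrd (2.48 ± 0.30) first. Acvr2b was lower in the chondroblasts by 2.04 and Bambi by 0.99 on the log2 scale, as was the BMP- and Notch-responsive gene Hey1 by 1.75, all with adjusted p between 0.00329 and 0.0119 in edgeR. The receptor Acvr1 was higher by 0.97 (adjusted p = 0.0495), the co-repressor Ski by 0.83 (0.0168) and Tbx2 by 1.69 (0.00811). In the TGF-beta branch the ligand Tgfb3 and the latent binding protein Ltbp1 were higher, by 3.22 and 1.17. Of 8 bHLH partners none passed, Tcf4 having the smallest p (log2 difference 0.60 ± 0.18, adjusted p = 0.0598).

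Between sorted controls, background shares set the scale for the members' calls. Chondroblasts against muscle called 0 of 9 members in edgeR (2 under an unadjusted p of 0.05, Id1 and Id3, and 0 in DESeq2) and 0.131% of 13703 genes by adjusted p, and 1 member (Id1, higher) and 5.5% of genes at the study's thresholds. Chondroblasts against epithelium called 2 members, both lower, and 2.72% of genes, and at the study's thresholds 1 higher and 3 lower (Msx2, and Id1, Id2 and Smad9) and 15.8% of genes. Epithelium against muscle called 2 members, both higher, and 3.58% of genes, and at the study's thresholds 3 higher (Id1, Id2 and Smad9) and 17.6% of genes. Gdf10, Gdf5 and Bmp1 were lower there than in chondroblasts (log2 chondroblasts minus epithelium 4.12 ± 0.44, 2.62 ± 0.29 and 1.92 ± 0.28, adjusted p from 0.0117 to 0.0236) and than in muscle (adjusted p from 0.0111 to 0.0218).

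Among Id partners, Tcf12, which encodes the E protein HEB, was lower in epithelium than in chondroblasts, at 137 ± 6 against 350 ± 33 CPM (SD, n = 2 each; adjusted p = 0.0291), and than in muscle, at 298 ± 59 CPM (adjusted p = 0.0407). Zeb2, a Smad-interacting repressor, was at 5.33 ± 3.1 CPM in epithelium against 77.5 ± 28 and 93.4 ± 11 CPM (adjusted p of 0.0232 and 0.0169). The antagonist Chrdl1 was the only list gene called between chondroblasts and muscle, at 27.3 ± 1.0 against 198 ± 35 CPM (adjusted p = 0.0495), and it was lower in epithelium than in muscle as well (66.2 ± 19 CPM, adjusted p = 0.0449). Bambi (adjusted p = 0.0454) and Fstl1 (0.0246) were also lower in epithelium than in muscle, and Tgfb3 and Ltbp1 were lower in epithelium than in both others.

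**Figure D5:**
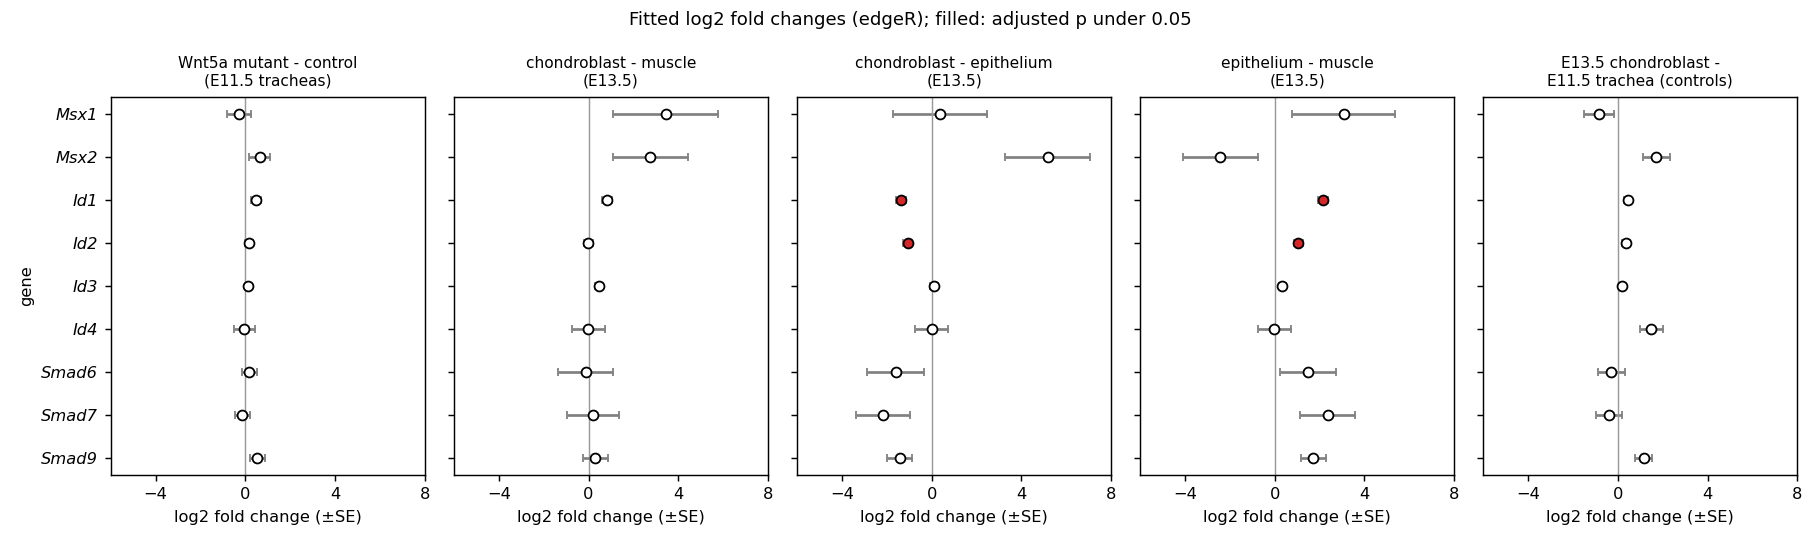
Fitted log2 fold change of the 9 members in the 5 tested comparisons, each panel showing the first-named group minus the second, with the standard error as a bar and filled points where the adjusted p (edgeR) is under 0.05. Only Id1 and Id2 are filled, in the chondroblast and muscle comparisons with epithelium.

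In order of mean level among the sorted groups, Msx2 ran from Notum mutant chondroblasts (97.5 CPM) through control chondroblasts (23.8 CPM) and muscle (3.47 CPM) to epithelium (0.623 CPM), with no overlap between neighbours. Id1 ran from epithelium (246 CPM) through control chondroblasts (98.3 CPM) and muscle (55.0 CPM) to the mutants (37.0 CPM), also with no overlap. For Smad9 the order was epithelium (38.6 CPM), mutants (28.9 CPM), control chondroblasts (14.6 CPM) and muscle (11.7 CPM), with epithelium and mutants overlapping and the others not. For Msx1 the mutants lay above all other sorted libraries and control chondroblasts above muscle, while the epithelium libraries lay on either side of both. Id4 separated none of these groups.

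The genes whose levels ran most like each member's were ranked by Pearson's r of log2(CPM + 1) over the 18 libraries among 15341 genes. The libraries fall into the groups above, so r describes the pattern across groups. For Msx1 they were Tiam1, Pcdhga2 and Lmbrd2 (r from 0.902 to 0.914), and for Msx2 2610035D17Rik, Igsf3 and the cyclin gene Ccnd1 (0.893 to 0.924). For Id1 they were Kcnk1, H2bc4 and Gpi1 (0.89 to 0.892), for Id2 Klf6, Nfkbiz and H3f3b (0.908 to 0.93), for Id3 Ess2, Glmp and Zbtb49 (0.824 to 0.841) and for Id4 AI506816, Ecrg4 and Nrbp2 (0.844 to 0.881). Smad6 ran most like Terf2, Slc49a4 and Ybx1 (0.828 to 0.914), Smad7 like Txnl4b, Ago1 and Prcc (0.863 to 0.887) and Smad9 like Nfkbia, Snhg17 and Brd1 (0.91 to 0.929). Pcdhga2, H2bc4 and H3f3b have near-identical relatives or shared exons, so their counts are uncertain.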

How the data were processed

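Expression was measured by RNA sequencing of whole tracheas and of sorted cells, with libraries made by a SMART-Seq v4 kit. The authors deposited 1 table of expected counts per annotated entry (estimated counts, 73.4% of the nonzero values fractional), and the submitters' processing notes name Partek, limma and mm10 without their roles. Versions of these tools, the aligner and the strand setting are not given in the sources used here. Of 22 columns, 18 matched the labels of a sample or group, and 4 were not used. The sorted controls thus had 2 columns for 3 labelled samples in each population, and the Notum mutants 3 for 4.

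Counts of 47248 entries were summed to 26202 symbols and rounded. A gene entered a test where over 50% of any fitted group's libraries reached 1 CPM. Tests used edgeR 4.0.16 (quasi-likelihood test, TMM, two-sided, Benjamini-Hochberg over all genes tested, R 4.3.3), and genes were called at an adjusted p under 0.05. The 3 sorted control populations shared a fit. The p and fold thresholds of the study (0.05 and 1.5) were counted beside it on edgeR p-values. The study took its p from DESeq2 and also asked for a minimum FPKM, for which the CPM filter stands here. P-values measure the spread between pools, whose independence the labels do not state.

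The members, the pathway and marker lists and the tests were chosen with earlier results of these data known. Named genes were the members, the targeted genes, the sort markers, from each pathway list up to 3 called genes per direction with the smallest p in a comparison (the gene with the smallest p where none was called), and the 3 genes most like each member. Pecam1, Kdr and Emcn were named after their values were seen. Promoter windows came from RefSeq (GRCm38.p6), and gene positions and exonic lengths from GENCODE vM21 on GRCm38, the assembly also called mm10.

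Numbers in the E11.5 column names were checked for pairing. Deviations from the group means correlated at 0.127 to 0.617 in the 4 pairs with the same number and at -0.371 to 0.256 in the 16 others. Only pair 7 lay above those others, and pairs 13, 17 and 18 were at 0.209, 0.128 and 0.127. The check thus does not settle whether the numbers pair the samples. They were used as a replicate block in an alternative and not in the main test, and this block moved no member past the threshold at E11.5. Alternatives were DESeq2 1.42.0, its size factors, library size only, no filter, the largest entry per symbol, each library left out, a block or date term, and all libraries in a single fit.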

Additional observations from a re-analysis of the deposited data

Results flagged for a closer look

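Msx1 in the E11.5 control 7 library was at 17.46 CPM, far from the 4 other E11.5 controls, of which the nearest was at 6.044 CPM. The gap was 0.794 of the group's range, above Dixon's 95% critical value of 0.71 for 5 samples. It was the only one flagged among 18 combinations of member and group with 4 or more libraries, and chance flags about 1 in 20. The same library held the highest Msx2 level of the E11.5 controls (16.6 CPM), and also the highest Sox9 (250 CPM) and Col2a1 (324 CPM) levels among them. It stood apart further in dissociation-induced genes, which summed to 3104 CPM against 251.7 to 499.6 CPM in the 4 other controls, and in neural genes, at 63.03 CPM against 212 to 250.7 CPM. Mutant 7 did likewise (3928 and 57.51 CPM) with Msx1 at 8.345 CPM. The part of these in the Msx1 level was not tested.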

How the results depend on the processing

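Across 45 fold changes of members in the tested comparisons, 521 of 585 alternative values kept direction and side of the threshold, 32 changed sign in 14 results, 23 lost a call and 9 gained one. In the Notum description 98 of 99 values moved by less than the replicate SD, Id3 reaching 0.08 with library size only. That measure hides changes of sign. Smad6 ran from -0.152 to 1.453 on the log2 scale, Id4 from -0.291 to 0.462 and Id3 from -0.073 to 0.078. Smad7 kept its sign but ran from 0.447 to 2.521. The causes were not tested.

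The number of genes called depended on the test. DESeq2 called 40 genes for Wnt5a, 254 for chondroblasts against muscle, 1556 for chondroblasts against epithelium, 1827 between epithelium and muscle, 3480 between stages and 525 for Notum. Without the filter these were 9, 305, 1463, 1620 and, for Notum, 42. Library size only gave 5 genes for Wnt5a, all libraries in 1 fit gave 0, and the date term gave 2610 for Notum. Leaving out single libraries gave 0 to 3 genes for Wnt5a, 2 to 22, 20 to 1038 and 162 to 1196 between populations in the same order, 816 to 3390 between stages and 0 to 2540 for Notum, the last without the earlier control chondroblast library and 104 without the later.

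Members called between chondroblasts and epithelium fell from 2 to 1 with the largest entry (Id2, adjusted p = 0.0581), to 0 with the replicate block and to 0 to 1 with a library left out. Between epithelium and muscle they were 1 with the replicate block and 0 to 1 with a library left out. Between stages they were 2 in DESeq2 (adjusted p of 0.0416 for Msx2 and 0.0397 for Smad9) and 0 to 2 with a library left out. The replicate block changed no other member call. For Notum, member counts without overlap are not given with a library left out or with the date term. Fewer libraries make non-overlap likelier for any gene.

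Changes of sign were in values near 0 or resting on 1 library. Id4 turned to 0.003 (library size only), 0.008 (no filter) and 0.238 (replicate block) for Wnt5a, to 0.001 (DESeq2), 0.002 (its size factors) and 0.007 (no filter) between chondroblasts and muscle, to -0.03 (library size only) and -0.035 (replicate block) between chondroblasts and epithelium, and to 0.025 (library size only) and 0 (replicate block) between epithelium and muscle. Between chondroblasts and muscle, Id2 turned to 0.007 without the filter and Smad7 to -0.271 with the replicate block. With a library left out, the Wnt5a difference ran from -0.488 to 0.303 for Msx1, -0.299 to 0.325 for Id4, -0.027 to 0.275 for Smad6 and -0.379 to 0.08 for Smad7. Between chondroblasts and muscle it ran from -0.231 to 0.237 for Id2, -0.445 to 0.306 for Id4, -1.153 to 0.452 for Smad6 and -1.191 to 0.882 for Smad7. Against epithelium, chondroblasts ran from -0.633 to 9.057 for Msx1 and -0.425 to 0.326 for Id4, and epithelium minus muscle from -5.61 to 4.068 and -0.231 to 0.232. Between stages the range was -1.287 to 0.28 for Smad6 and -1.756 to 0.28 for Smad7.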
